A study of Homo sapiens with 8 samples.

Results

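Metallothioneins are small cysteine-rich proteins that bind zinc, copper and cadmium, and their genes lie in a cluster on human chromosome 16. The 6 members described here, MT1E, MT1F, MT1G, MT1M, MT1X and MT2A, were found by their Entrez gene identifiers among the 17131 genes of the expression table. Metallothionein transcription is raised by zinc and cadmium through MTF1, a zinc-finger factor that binds metal response elements in their promoters. Glucocorticoids and cytokines that signal through STAT3 are also known to induce these genes. In the epidermis metallothioneins are found mainly in proliferating basal keratinocytes and are known for holding zinc and for buffering oxidants.

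RNA from 8 cultures of HaCaT, an established line of human keratinocytes, was sequenced, 4 libraries titled M5_O5 and 4 titled M5. Every culture received M5 for 24 h, a psoriasis-like stimulus of oncostatin M, TNF-α, IL-1α, IL-17A and IL-22, 5 cytokines given at 10 ng/mL. By the study's methods the OTS514 cultures were first kept for 12 h in 10 nM OTS514, an inhibitor of the kinase TOPK. OTS514 was then given along with M5 for the 24 h. The M5_O5 title would stand for M5 plus OTS514, but the treatment entered for those libraries is none and the treatment entered for the M5 libraries is the TOPK inhibitor, so the libraries were compared by title, and every direction below is M5_O5 over M5 and would be exchanged for OTS514 if the entered treatment holds. HaCaT is a single immortalised line, a library without M5 was not analysed here, and no label says whether the replicates came from separate experiments, so p-values measure the spread between these libraries, which may be technical.

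Total estimated counts ranged from 13708055 to 16922693 per library, with M5 replicate 1 the smallest. M5 replicate 1 also stood apart over all genes: the chi-square per gene between it and the other M5 libraries was 10.35 to 16.5, against 2.03 to 4.06 among those others. For M5_O5 replicate 1 it was 7.12 to 11.1, against 3.05 to 7.15 among the other M5_O5 libraries, and these ranges overlap. All 10 keratinocyte markers listed were tested, and 1 passed higher and 7 lower in M5_O5. Their summed level was 9580 to 10465 CPM (the count scaled to the library's total) in M5_O5 and 12210 to 13272 CPM in M5. KRT14 and COL17A1 were the most abundant. Over all genes tested 19.5% passed higher and 17.6% lower. Among the 1273 genes at or above the level of MT1E these shares were 7.46% and 45.3%. KRT1, KRT10, IVL and FLG lie below that level. KRT1 (log2 fold change -2.04) and KRT10 (-1.04) fell at least 2-fold, and both were highest in M5 replicate 1. KRT1 was at 116.9 CPM there, against 20.1 to 47.0 CPM in the other M5 libraries. Of the 7 leukocyte markers only CD14 passed the filter on low counts and PTPRC had 0 counts in every library, and of the 7 fibroblast markers COL1A1 fell. Among endothelial markers PECAM1 had at most 1 count in a library, while CDH5 rose from 3 to 7 counts in M5 to 42 to 57 in M5_O5. The part of these markers in the results below was not tested, and in bulk RNA fewer cells of a type and less RNA per cell cannot be told apart.

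The family's genes are close copies, which bears on how reads were counted. The coding sequences of the 4 members with more than a few reads are shown 5′ to 3′ from the GENCODE models on GRCh38, all on the plus strand of chromosome 16, with capitals where a base differs from MT2A. The transcripts span chr16:56608199-56609497 for MT2A, chr16:56682424-56684196 for MT1X, chr16:56625475-56627112 for MT1E and chr16:56657694-56659303 for MT1F, and each has 3 exons.
MT2A: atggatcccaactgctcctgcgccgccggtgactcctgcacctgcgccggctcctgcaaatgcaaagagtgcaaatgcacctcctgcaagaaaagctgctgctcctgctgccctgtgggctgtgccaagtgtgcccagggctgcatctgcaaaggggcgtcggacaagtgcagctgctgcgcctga
MT1X: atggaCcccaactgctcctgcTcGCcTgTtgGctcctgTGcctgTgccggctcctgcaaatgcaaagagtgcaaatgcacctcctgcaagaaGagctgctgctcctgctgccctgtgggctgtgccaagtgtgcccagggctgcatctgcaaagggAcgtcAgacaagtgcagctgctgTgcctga
MT1E: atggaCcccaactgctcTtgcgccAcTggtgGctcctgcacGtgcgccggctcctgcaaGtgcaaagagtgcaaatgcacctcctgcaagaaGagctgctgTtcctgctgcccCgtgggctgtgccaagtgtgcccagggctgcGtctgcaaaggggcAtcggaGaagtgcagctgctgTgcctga
MT1F: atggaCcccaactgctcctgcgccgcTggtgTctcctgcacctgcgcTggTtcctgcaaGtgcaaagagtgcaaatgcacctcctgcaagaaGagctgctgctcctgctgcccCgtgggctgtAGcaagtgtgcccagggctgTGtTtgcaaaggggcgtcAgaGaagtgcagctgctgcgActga
Each sequence has 186 bases, and 20 of its 61 codons before the stop encode cysteine, the residue that holds the metal ions. MT1X and MT1E each differ from MT2A at 14 bases and MT1F at 16, and over the pairs of these genes, MT1G, MT1M and MT1A the identity was 88.7% to 95.2%. Over the whole transcripts the longest identical run shared with MT2A was 63 bases for MT1X and 32 bases for MT1E. The estimated counts of MT2A, MT1X, MT1F and MT1M were whole numbers in 8 of 8 libraries, to within 0.02 of a count. Those of MT1E were whole in 2, of MT1G in 6 and of MT1A in 3. The sum of these 3 genes was whole in 8 of 8, so a division of reads was visible only among MT1E, MT1G and MT1A. MT1G also shares identical runs of 96 bases with MT1X and 65 bases with MT2A. Reads placed almost wholly on 1 gene would leave whole numbers, so whole counts cannot show whether shared reads were assigned to the right member.

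The promoters of MT2A and MT1X, taken from RefSeq on GRCh38.p14 as the 250 bases before the gene's start, are shown because metal response elements are the family's best-known control sites. The MT2A window is chr16:56608334-56608583 and the MT1X window chr16:56682220-56682469, both on the plus strand, and capitals mark the core TGCACNC or TGCGCNC on either strand. The GENCODE model of MT2A starts before its window, and that of MT1X starts within its window.
MT2A promoter: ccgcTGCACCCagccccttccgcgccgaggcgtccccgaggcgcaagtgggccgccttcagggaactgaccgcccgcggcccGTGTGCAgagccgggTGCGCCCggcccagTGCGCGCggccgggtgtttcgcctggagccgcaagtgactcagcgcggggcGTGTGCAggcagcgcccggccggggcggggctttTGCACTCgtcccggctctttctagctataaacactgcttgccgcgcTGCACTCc
MT1X promoter: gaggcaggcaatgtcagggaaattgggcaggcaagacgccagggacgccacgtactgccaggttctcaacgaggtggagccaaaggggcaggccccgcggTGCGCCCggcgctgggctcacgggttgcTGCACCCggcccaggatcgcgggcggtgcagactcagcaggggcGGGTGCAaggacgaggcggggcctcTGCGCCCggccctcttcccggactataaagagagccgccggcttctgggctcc
The MT2A window held 7 cores and the MT1X window 4. Of 35116 promoters of this length, 24.8% held at least 1 core, 0.370% at least 4 and 0.0313% at least 7. Each window also held 1 TATAAA, 1 antioxidant response element (TGACNNNGC, in 10.9% of promoters) and 2 GC boxes (GGGCGG, in 42.6%), counted on both strands. TGACTCA, the AP-1 motif, was found in the MT2A window, where it overlaps the antioxidant element, and not in that of MT1X (4.20% of promoters). TTCNNNGAA, the STAT motif, was likewise found in the MT2A window and not in that of MT1X (6.57% of promoters).

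By deposited TPM, MT2A was among the most abundant transcripts of these keratinocytes. Levels are compared between genes in deposited TPM, which divides counts by an effective length. For MT2A that length was 79.4 to 110.4 bases, while its GENCODE transcript has 786 bases, so its TPM rank rests on this short length. In TMM-scaled CPM, which does not divide by length, MT2A (1484 in M5_O5) lay below genes such as FTH1 (11123), KRT14 (3617) and COL17A1 (2714). MT2A averaged 25464 ± 3002 TPM (SD, n = 4) in M5_O5 and 28112.5 ± 4243 TPM in M5, and ranked 3 of 17131 genes in each group. MT1X averaged 2712 ± 372 TPM in M5_O5 and 2934 ± 359 TPM in M5 (ranks 42 and 39). MT1E averaged 2618 ± 568 TPM and 2418 ± 367 TPM (ranks 48 and 51). The ranges of MT1X and MT1E overlapped in each group, while MT2A lay far above both in every library. MT1F followed at 29.7 ± 8.05 TPM in M5_O5 and 30.3 ± 4.64 TPM in M5 (ranks 3965 and 3650).

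MT1G and MT1M, further MT1 isoforms, were close to undetected. MT1G had 1 to 3.83 estimated counts in the M5_O5 libraries and 0 to 4 in the M5 libraries. MT1M had 2, 0, 1 and 0 counts in M5_O5 and 0, 0, 1 and 0 in M5. A count of 0 allows up to 0.177 to 0.219 CPM without TMM scaling, depending on the library and for counting error only. No difference in MT1G or MT1M was thus detectable at this depth. Of the other metallothionein genes, MT1A had 1.01 to 4.24 estimated counts in M5_O5 and 2.59 to 6 in M5, and MT3, the brain isoform, had 1 count in M5_O5 replicate 4 and 0 in the other libraries. The 6 members together took 0.159% to 0.244% of a library's counts and 2.58% to 3.83% of its TPM, and MT2A supplied 81.6% to 84.0% of the members' counts.

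MT2A, the main metallothionein of most human tissues, had CPM of 1390.0, 1427, 1682 and 1438 in M5_O5 replicates 1 to 4 and 1328, 2179, 1996 and 1866 in M5 replicates 1 to 4, after scaling by the trimmed mean of M-values (TMM). Replicates 2, 3 and 4 of M5 lay above all 4 M5_O5 libraries and M5 replicate 1 below them, so the groups overlapped. The means were 1484 ± 133 CPM and 1842 ± 366 CPM, and the log2 fold change was -0.31 (SE 0.12), with an adjusted p of 0.0513 by edgeR's quasi-likelihood test over all 12434 genes tested. The exact permutation test of 4 against 4, two-sided, gave p = 0.143, where the smallest p this design allows is 0.0286.

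MT1X, an isoform of the MT1 group, had CPM of 146, 157, 187 and 157 in M5_O5 and 147, 223, 218 and 199 in M5. The order of the libraries was close to that of MT2A, with M5 replicate 1 again beside the lowest M5_O5 libraries. Its log2 fold change was -0.28 (SE 0.11), with an adjusted p of 0.0562 by edgeR and an exact permutation p of 0.171. Among single libraries, leaving out M5 replicate 1 moved these values most. MT2A was then at -0.44 (adjusted p = 0.000149 by edgeR) and MT1X at -0.40 (adjusted p = 0.000452), both past the threshold of 0.05. Without M5_O5 replicate 3, which held the highest M5_O5 level of all 4 tested members, MT2A was at -0.38 (adjusted p = 0.0390) and MT1X at -0.36 (adjusted p = 0.0289). Without M5_O5 replicate 1 they were at -0.28 and -0.24, and neither passed.

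MT1E, another MT1 isoform, had CPM of 126, 157, 190.2 and 142 in M5_O5 and 117, 193, 170.4 and 155 in M5. The groups covered nearly the same range. Its log2 fold change was -0.05 (SE 0.13, adjusted p = 0.792 by edgeR) and 0 of 18 alternative settings passed by their own tools, with values from -0.17, without a library, to 0.10, on the TPM scales. Relative to the median of all genes it was at -0.06 with TMM, -0.06 with library size alone, -0.02 on log2(TPM + 1) and 0.07 after cyclic loess. MT1F had CPM of 1.86, 1.61, 3.08 and 1.96 in M5_O5 and 1.97, 2.29, 3.22 and 2.18 in M5, from 27 to 52 counts a library, and the groups overlapped. Its log2 fold change was -0.19 (SE 0.23, adjusted p = 0.544 by edgeR).

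**Figure D1:**
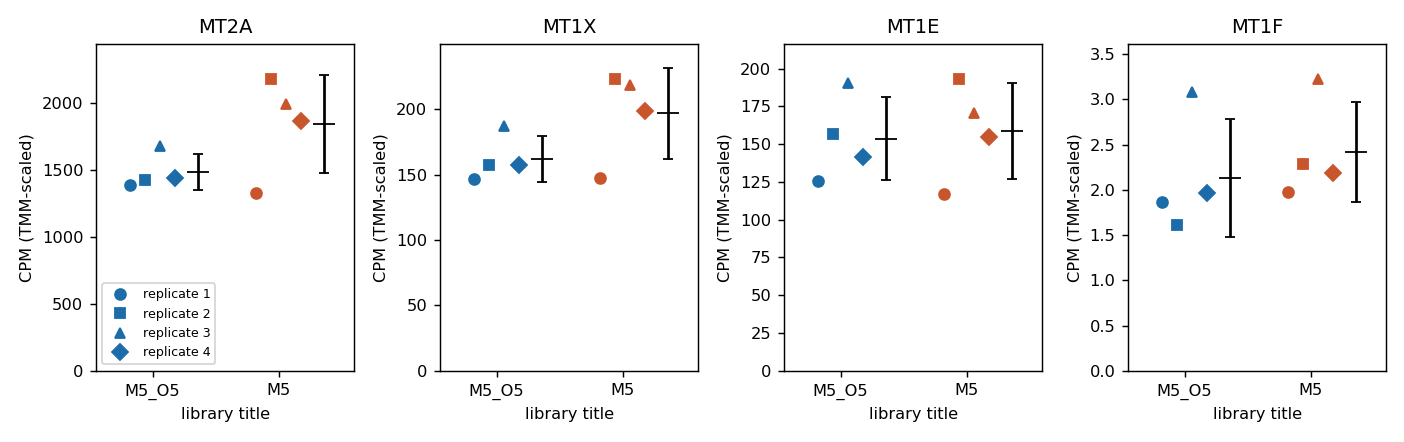
TMM-scaled CPM of MT2A, MT1X, MT1E and MT1F in each library (vertical axes from 0, 1 marker shape per replicate number), with the mean and SD of each group of 4 as bars. For MT2A the M5 libraries lie at 1328 to 2179 CPM and the M5_O5 libraries at 1390.0 to 1682 CPM, and the groups overlap in all 4 genes.

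In all, 0 of the 4 tested members passed at an adjusted p under 0.05 by edgeR, while 37.1% of all genes tested did (19.5% higher, 17.6% lower). At an unadjusted p under 0.05, 2 members, MT2A and MT1X, were lower, and by DESeq2 the same 2 passed as lower. An adjusted p under 0.05 together with a change of at least 2-fold, found for 3.20% of genes (2.87% higher, 0.330% lower), was reached by 0 members. The groups did not overlap in 0 of the 4 members and in 33.6% of all genes tested. The median log2 fold change of the 4 tested members was -0.23 and that of all genes was 0.01. Among the 1273 genes at or above the level of MT1E the median log2 fold change was -0.15 and 45.3% passed as lower and 7.46% as higher.

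Over 18 alternative settings MT2A and MT1X were lower in 18 and passed in 6. MT2A ranged from -0.44 to -0.10 and MT1X from -0.40 to -0.12 on the log2 scale. The scale of all genes moved with the setting: their median was 0.13 with library size alone and 0.12 on log2(TPM + 1). Relative to that median MT2A was at -0.32 with TMM, -0.32 with library size alone and -0.25 on log2(TPM + 1), but at -0.09 after cyclic loess, which evens out trends with abundance.

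**Figure D2:**
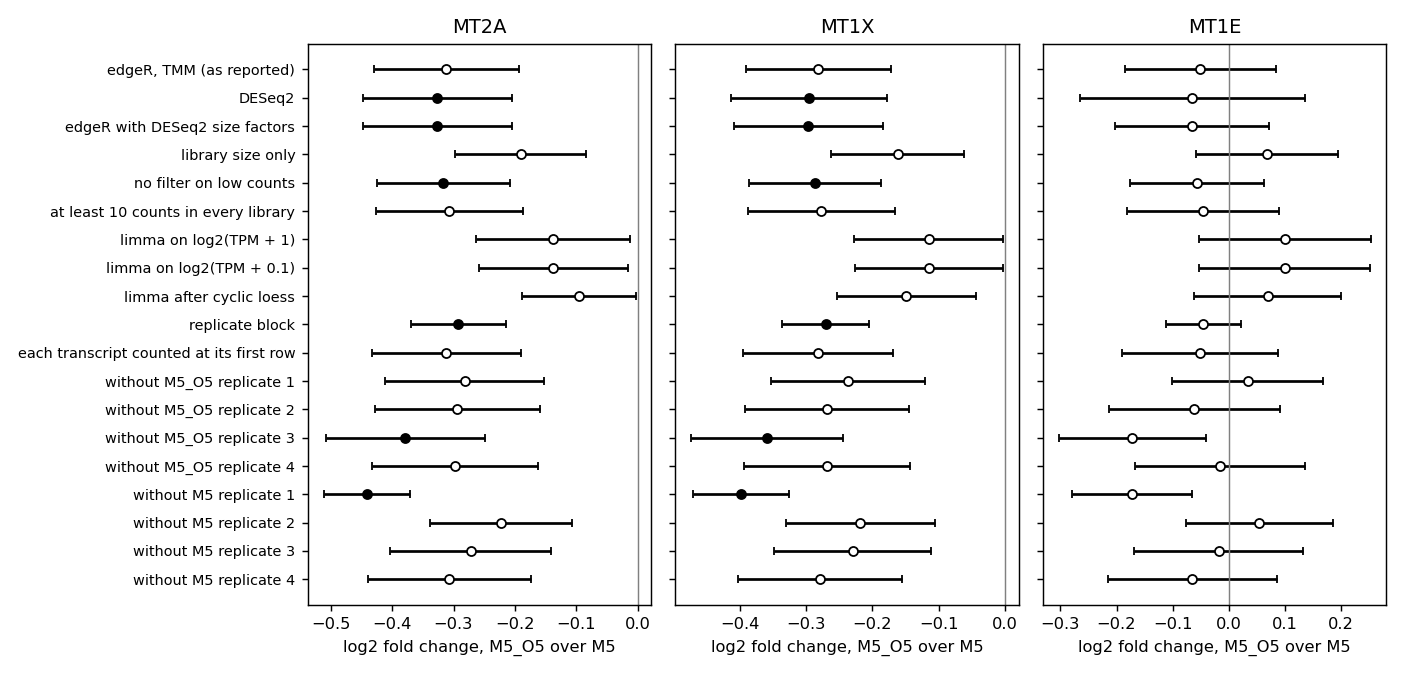
Log2 fold change of MT2A, MT1X and MT1E (horizontal axes, M5_O5 over M5, bars 1 SE) as reported and under each alternative, with filled points where the adjusted p was under 0.05. MT2A and MT1X lie below 0 in every setting and are filled in 6 alternatives each, while MT1E lies on both sides of 0 and is never filled.

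The deposited TPM of these short genes carried a length term that differed between libraries. The effective length of MT2A, worked out from its deposited counts and FPKM (fragments scaled by length and depth), ranged from 79.4 to 110.4 bases, a ratio of 1.39, where transcripts with an effective length of at least 1000 bases had a median ratio of 1.01. M5_O5 replicates 1 and 2 had nearly the same MT2A counts, 1465 and 1468 CPM without TMM scaling. Their TPM were 21658 and 27933. The mean effective length was 96.1 ± 12.8 bases in M5_O5 and 97.5 ± 4.73 bases in M5 (exact permutation p = 0.886). The difference in TPM between these libraries thus stood beside nearly equal counts.

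**Figure D3:**
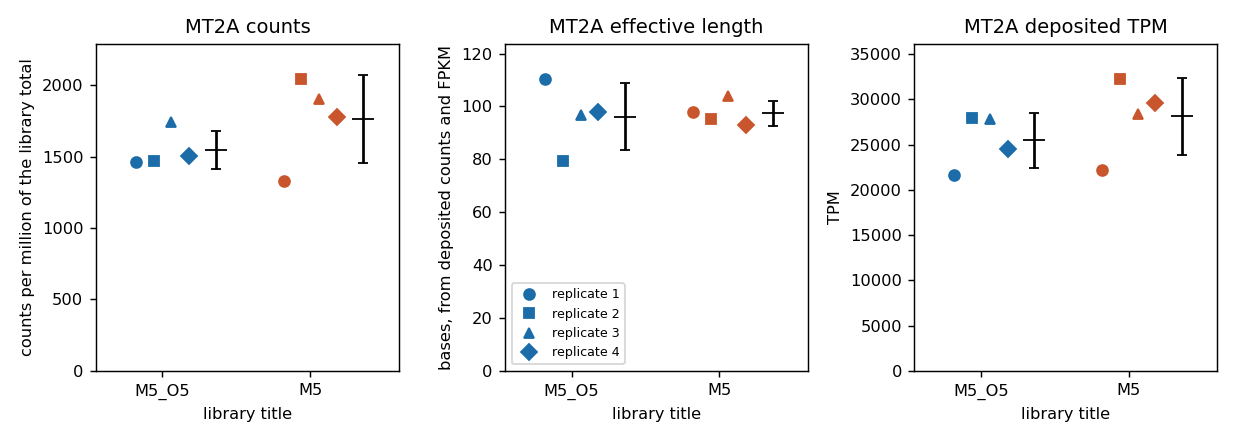
MT2A in each library as CPM without TMM scaling, as effective length in bases and as deposited TPM (vertical axes from 0, bars are mean and SD of 4 libraries). M5_O5 replicates 1 and 2 have 1465 and 1468 CPM, effective lengths of 110.4 and 79.4 bases, and TPM of 21658 and 27933.

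MT2A and MT1X moved together from library to library. Likeness was measured as the root-mean-square difference of centred log2 CPM over the 8 libraries, with 9172 other genes as candidates, and is a description. MT1X was the gene most like MT2A and MT2A the gene most like MT1X, at 0.0399. The next most like MT2A were KRTCAP2 (0.0758), a subunit of the oligosaccharyltransferase complex, and PHLDA2 (0.0762), an imprinted growth regulator. For MT1X they were RPS27 (0.0574), a ribosomal protein, and KRTCAP2 (0.0601). MT1E was most like IFITM2 (0.0669), an interferon-induced membrane protein, and MAPK3 (0.0700), the kinase ERK1, while MT1X ranked 112 and MT2A 224 for it. MT1F was most like FAM156A (0.175) and RPS27 (0.196). These genes share libraries and depth with the members.

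The members were also compared with MT2A within each library. MT1E counts as a percent of MT2A counts were 9.03, 11.0, 11.3 and 9.85 in M5_O5 replicates 1 to 4 and 8.84, 8.86, 8.54 and 8.30 in M5. All 4 M5_O5 libraries lay above all 4 M5 libraries, although by counting error alone M5_O5 replicate 1 (95% interval 8.64 to 9.44, by a normal approximation on the log ratio) overlapped M5 replicate 2 (8.54 to 9.20). In CPM the groups did not overlap in 33.6% of all genes tested, and the share over other pairs of genes was not computed. The means were 10.3% ± 1.05 and 8.63% ± 0.267, a log2 ratio of 0.25, with an exact permutation p of 0.0286, the smallest possible, and 0.0571 after Benjamini-Hochberg adjustment over the 4 such measures, chosen after the values were seen. The log2 ratio was 0.24 in TPM and 0.24 with only the main MT1E transcript, and 0.20 to 0.31 with any library left out. MT1X counts were 10.9% ± 0.259 of MT2A counts in M5_O5 and 10.7% ± 0.381 in M5 (exact permutation p = 0.543, adjusted 0.686). MT1F counts were 0.142% ± 0.0298 and 0.133% ± 0.0265 (exact permutation p = 0.686).

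MT1E was counted on a pair of RefSeq transcripts. The main transcript has 3 exons and the second has 2, the last of which covers all 348 bases of the main transcript's second intron, so a read there from unspliced RNA would be counted on it. The second transcript took 5.04%, 4.21%, 4.30% and 4.65% of MT1E counts in M5_O5 replicates 1 to 4 and 3.64%, 3.32%, 3.78% and 3.60% in M5. The M5_O5 libraries were all above the M5 libraries, with means of 4.55% ± 0.381 and 3.59% ± 0.192. How often the transcript shares of other genes separate the groups was not computed, and 33.6% of all genes tested did so in CPM. The exact permutation p was 0.0286, adjusted 0.0571 over the 4 measures, and the log2 ratio stayed between 0.29 and 0.38 with any library left out.

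**Figure D4:**
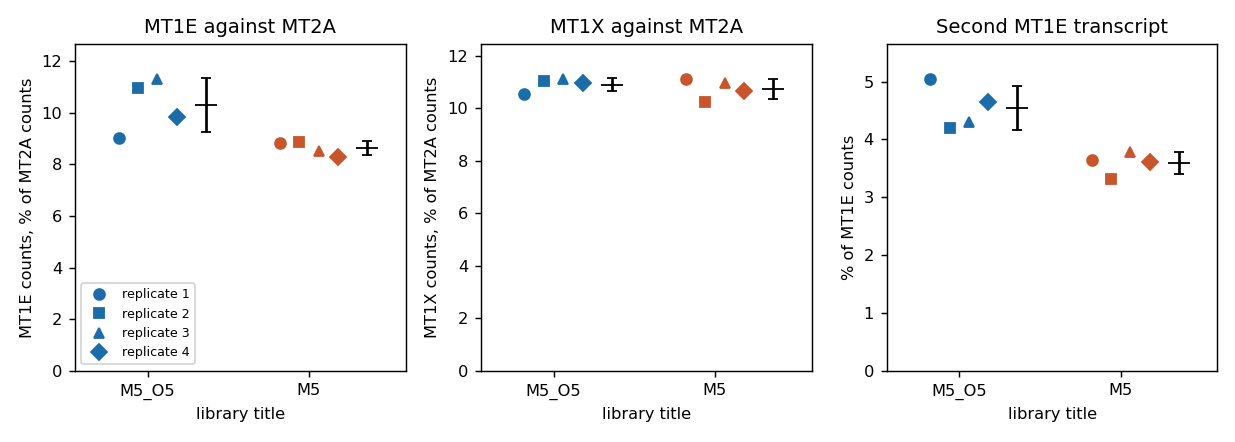
MT1E counts and MT1X counts as a percent of MT2A counts, and counts of the second MT1E transcript as a percent of MT1E counts, in each library (vertical axes from 0, bars are mean and SD of 4 libraries). The groups are separate for MT1E (9.03 to 11.3 against 8.30 to 8.86) and for its second transcript (4.21 to 5.04 against 3.32 to 3.78), and overlap for MT1X.

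Of the 8 genes of metal-responsive transcription and zinc induction, 2 passed as higher, 2 as lower and 4 did not pass, with a median log2 fold change of 0.06. Over this and the further lists below, 60 genes were tested, and 9 passed as higher (15.0%) and 11 as lower (18.3%), near the 19.5% and 17.6% of all genes, so the counts by list say nothing particular about these genes and are given as a description. With an adjusted p under 0.05, 0 of the 60 changed at least 2-fold. MTF1, the factor that activates the metallothionein genes, had 38.4 ± 3.29 CPM in M5_O5 and 42.1 ± 2.82 CPM in M5 (-0.13, adjusted p = 0.181 by edgeR). SLC30A1, the plasma membrane zinc exporter that MTF1 also activates, rose to 51.1 ± 3.54 CPM from 40.9 ± 6.85 CPM (0.33, adjusted p = 0.0169 by edgeR). The groups overlapped, with M5 replicate 1 at 50.4 CPM and M5_O5 replicates 1 and 3 below it, and the exact permutation p was 0.0857. The edgeR call was lost without M5_O5 replicate 4, M5 replicate 2 or M5 replicate 4 (highest adjusted p 0.0672). GCLC, the catalytic subunit of the first enzyme of glutathione synthesis, rose to 34.3 from 24.0 CPM (0.52, adjusted p = 0.00153). HSPA1B, an inducible HSP70 chaperone, fell by 0.43 on the log2 scale (adjusted p = 0.000293). HSPA1A is its near-identical copy, so the division of reads between them is uncertain, and it was at -0.30 (adjusted p = 0.00548).

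Of 11 zinc importers of the SLC39A family tested, 3 rose, 1 fell and 7 did not pass, with a median of 0.06. SLC39A1, an importer of the plasma membrane, rose to 258 ± 12.2 CPM from 216 ± 7.24 CPM (0.26, adjusted p = 0.00190 by edgeR). SLC39A3 rose by 0.36 (adjusted p = 0.0196) and SLC39A11 by 0.34 (adjusted p = 0.0305). The groups overlapped for SLC39A3 (exact permutation p = 0.0571). After cyclic loess neither the SLC39A3 nor the SLC39A11 call held (0.21 and 0.20). The SLC39A3 call was also lost without M5_O5 replicate 3 (adjusted p = 0.0652 by edgeR), and the SLC39A11 call without M5_O5 replicate 2, M5 replicate 2 or M5 replicate 3 (highest adjusted p 0.106). Of the zinc exporters other than SLC30A1, 5 were tested and 0 passed by edgeR (median -0.11), with SLC30A7, which loads zinc into the secretory pathway, under an unadjusted p of 0.05.

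Of 11 copper handling genes 2 rose and 0 fell, beside 19.5% of all genes higher. SOD1, the copper and zinc superoxide dismutase, rose to 34.6 ± 1.26 CPM from 20.8 ± 1.80 CPM (0.73, adjusted p = 7.72e-06 by edgeR). ATP7B, a copper-transporting ATPase, rose by 0.37 (adjusted p = 0.0254), but not in 7 of 18 alternatives: the adjusted p was 0.0677 with DESeq2, the change was 0.17 after cyclic loess, and the call was lost on leaving out M5_O5 replicate 1, 2 or 3 or M5 replicate 2 or 3 (highest adjusted p 0.0784). Of 7 iron genes 2 rose and 1 fell. FTL, the ferritin light chain, rose to 661 from 484 CPM (0.45, adjusted p = 0.000196 by edgeR). FTH1, the far more abundant ferritin heavy chain, had the other sign and did not pass. It was at 11123 ± 1106 CPM in M5_O5 and 12977 ± 1458 CPM in M5 (-0.22, adjusted p = 0.0798 by edgeR). TFRC, the transferrin receptor, rose by 0.36 (adjusted p = 0.00185). NCOA4, the receptor that delivers ferritin to lysosomes, fell by 0.17 (adjusted p = 0.0194). The NCOA4 call was lost in 5 of 18 alternatives, at -0.058 with library size alone, -0.048 on both TPM scales, -0.014 after cyclic loess and -0.15 without M5_O5 replicate 3 (adjusted p = 0.0602 by edgeR).

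The last lists hold regulators known to act on metallothionein genes, the glucocorticoid receptor and STAT3, with genes that they induce. In the glucocorticoid list 3 of 8 genes fell and 0 rose (median -0.01), beside 17.6% of all genes lower. They were NR3C1, the glucocorticoid receptor itself (-0.35, adjusted p = 0.000510 by edgeR), NFKBIA, the inhibitor of NF-κB (-0.32, adjusted p = 0.000281), and DUSP1, a phosphatase of MAP kinases (-0.28, adjusted p = 0.00518), of which NFKBIA and DUSP1 also answer to cytokines. The NR3C1 and DUSP1 calls were lost on both TPM scales (NR3C1 at -0.20 and -0.21, DUSP1 at -0.15 on each), and that of DUSP1 with library size alone (-0.16). In the list of oncostatin M and IL-6 family receptors with STAT3 targets 4 of 10 fell and 0 rose (median -0.15), beside 17.6% of all genes lower. Among the 1273 genes at or above the level of MT1E, 45.3% passed as lower and the median was -0.15. Of the list, OSMR, IL6ST, STAT3, SOCS3 and JUNB reach that level, and the others, PIM1 and BCL3 among them, lie below it. The medians of the list and of the 1273 genes are therefore not a like comparison. PIM1, a STAT3-induced kinase, fell to 31.8 ± 2.98 CPM from 51.1 ± 8.23 CPM (-0.69, adjusted p = 0.000203 by edgeR). SOCS3, the feedback inhibitor of the pathway, was at -0.27 (adjusted p = 0.00334), BCL3 at -0.26 (adjusted p = 0.0188) and STAT3 itself, the fourth, at -0.21 (adjusted p = 0.00646). SOCS3 no longer passed on both TPM scales (-0.13) or after cyclic loess (-0.12). BCL3 no longer passed on both TPM scales (-0.14), with library size alone (-0.14), after cyclic loess (-0.18) or without M5 replicate 2 or 4 (highest adjusted p 0.0697 by edgeR). Its groups also overlapped (exact permutation p = 0.0571). OSMR, the receptor subunit for oncostatin M, did not pass (-0.10, adjusted p = 0.161).

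The split over the 60 genes moved with the scaling as it did over all genes. With library size alone 15 passed as higher and 5 as lower, and over all genes 3858 and 1008. On log2(TPM + 1) the counts were 14 and 3, and over all genes 3261 and 761, where TMM gave 2421 and 2192.

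**Figure D5:**
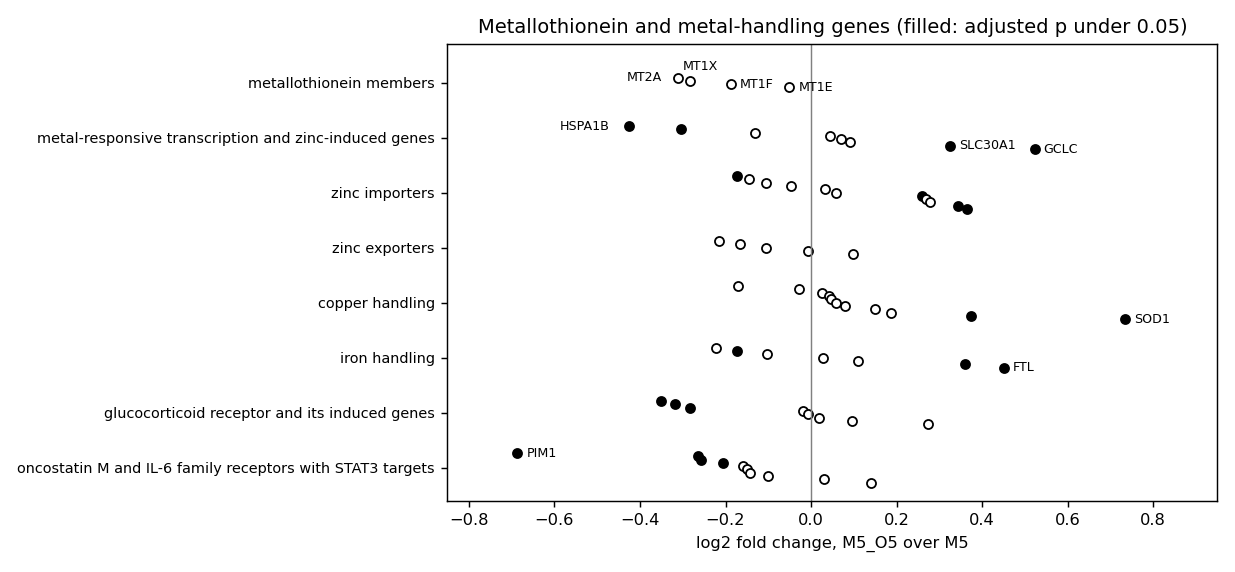
Log2 fold change (horizontal axis, M5_O5 over M5) of each tested gene of the metallothionein members and 7 lists of metal-handling and regulatory genes, filled where the adjusted p was under 0.05. The 4 members lie between -0.31 and -0.05 and are unfilled, and SOD1 (0.73) and PIM1 (-0.69) lie farthest from 0.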

How the data were processed

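Per the paper's methods, filtered reads were mapped with HISAT2 and counted with StringTie. The submitters' processing notes name HISAT2 2.1.0, Bowtie2 2.2.5, RSEM 1.2.8 and the mouse build mm10, although the rows are human RefSeq transcripts, so the tool behind the values is not settled. The authors deposited, for 86639 transcripts and every library, estimated counts that were not normalized, TPM (scaled to a fixed sum per library) and FPKM (per length and depth). The authors' deposited group means and fold changes were not used. The number of columns with no assigned library was 0.

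Counts were summed per Entrez gene, 4180 further placements of a transcript included, and rounded. RefSeq names (GRCh38.p14) matched 17072 genes, and the 59 others held at most 0.0201% of counts. Genes were filtered by filterByExpr, scaled by TMM and compared with edgeR 4.0.16 (R 4.3.3), quasi-likelihood test, Benjamini-Hochberg adjustment over 12434 genes, passed at an adjusted p-value under 0.05. The biological coefficient of variation was 7.42%. Single genes and ratios had two-sided exact permutation tests. The step was tested on simulated counts with added changes of at least 2-fold and no outlying library. The members' changes were smaller, so that test does not bear on their calls. Replicate pairs differed beyond sampling noise (chi-square per gene 2.03 to 16.5), and each library was kept as its own replicate.

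The settings varied were the tool (DESeq2 1.42.0), the scaling, the filter, limma 3.58.1 on log2(TPM + 1) and log2(TPM + 0.1) and after cyclic loess, each transcript counted at its first row, a block for the replicate number, and leaving out each library in turn. The members and gene lists were chosen with earlier results of these data known. The genes named were the members, the other metallothionein genes in the table, MTF1, SLC30A1, the 3 largest changes among those passed in each list, and the 2 genes most like each member. Markers, HSPA1A, SLC30A7, FTH1, STAT3, OSMR, IL6ST and JUNB were named after their values were seen. MT1B, MT1H, MT1L and MT4 were not analysed here. The deviations of replicates with the same number correlated at -0.00358 to 0.209, and those of differently numbered replicates at -0.201 to 0.206. Read length and library strand are not given in the sources used here, and intervals cover counting error only.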

Additional observations from a re-analysis of the deposited data

Results flagged for a closer look

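Among 56 groups of 4 libraries, 5 held 1 library far from the others, where chance gives about 2.8. MT2A in M5_O5 was at 1682 CPM in replicate 3, against 1390.0 to 1438 CPM in the other libraries. MTF1 in M5 was at 37.9 CPM in replicate 1, against 43.2 to 44.0 CPM. GCLC in M5 was at 30.2 CPM in replicate 1, against 21.4 to 22.5 CPM, and still below every M5_O5 library. PIM1 in M5_O5 was at 27.4 CPM in replicate 1, against 32.8 to 33.8 CPM. MT1F in M5 had a deposited TPM of 37.2 in replicate 3, against 27.5 to 28.4. M5 replicate 1 is the library that stood apart over all genes. For M5_O5 replicate 1 the chi-square per gene overlapped that among the other M5_O5 libraries (7.12 to 11.1 against 3.05 to 7.15).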

How the results depend on the processing

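With no change of 2-fold or more and no higher call among the members under any alternative, the number of members passing as lower was 0 as reported and 2 with DESeq2, with edgeR on DESeq2 size factors, with no filter on low counts and with the replicate block, and 0 to 2 with a library left out. MT2A and MT1X were these 2: with DESeq2 -0.33 and -0.30, with its size factors -0.33 and -0.30, with no filter -0.32 and -0.29, and with the replicate block -0.29 and -0.27 (adjusted p 0.00671 and 0.00354). With a library left out MT2A ranged from -0.44 to -0.22, MT1X from -0.40 to -0.22, MT1E from -0.17 to 0.055 and MT1F from -0.42 to -0.02. MT1E turned positive with library size alone (0.069), on log2(TPM + 1) (0.10), on log2(TPM + 0.1) (0.10), after cyclic loess (0.070), without M5_O5 replicate 1 (0.034) and without M5 replicate 2 (0.055), and MTF1 turned to 0.018 and 0.020 on these TPM scales. Library size alone and log2(TPM + 1) move the median of all genes to 0.13 and 0.12, and relative to it MT1E stayed below 0 (-0.06 and -0.02). The other genes counted 9 higher and 11 lower as reported, 15 and 5 with library size alone, 14 and 3 on both TPM scales, 9 and 5 after cyclic loess, and 6 to 12 higher and 10 to 13 lower with a library left out. The log2 ratios of mean TPM, -0.14 for MT2A, -0.11 for MT1X, 0.11 for MT1E and -0.03 for MT1F, ranged with a library left out from -0.24 to -0.070, -0.20 to -0.030, 0.020 to 0.24 and -0.24 to 0.086. The cause of these shifts was not tested. The deviations of same-numbered libraries correlated at 0.209, 0.0986, -0.00358 and 0.0130, and those of differently numbered libraries at -0.201 to 0.206. Replicate 1 was the lowest library of each group for MT2A, MT1X and MT1E. No label says whether libraries of the same number were handled together, so the block pairs them by number alone. Depth limits MT1G, MT1M, MT1A and MT3, all at 6 counts or fewer in each library.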
